A study of Homo sapiens with 24 samples.

Results

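LUC7L, LUC7L2, LUC7L3, ARGLU1, C1orf63 (now named RSRP1), RBM5, RBM6, RBM25, RBM39 and SON are 10 genes for RNA-binding proteins that help choose splice sites or organise the splicing machinery. They were taken by name from tables that list 13236 gene groups, of which 154 merge several genes. Each of the other 9 members had a gene group of its own, whereas LUC7L2 was present only in a group merged with the read-through gene C7orf55-LUC7L2. The value of that merged group is given below as merged LUC7L2, and reads of its parts cannot be told apart. The 9 groups held 180 bins, the exon or intron segments into which a gene is divided for counting, and the merged group held 15, of 164219 bins in all. Of these, 11 bins were marked by the authors as detained introns, of 4769 in the tables. The 11 lie in 7 of the members, and LUC7L, LUC7L3 and ARGLU1 had none.

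The samples were polyadenylated RNA of HEK293T cells, an established line from human embryonic kidney. The enzyme OGT attaches O-GlcNAc, a sugar, to nuclear and cytoplasmic proteins, and OGA removes it. Cells were given 10 µM of the OGT inhibitor OSMI-2 or 5 µM of TMG (Thiamet-G), which inhibits OGA. Each drug was given for 2 h or 6 h beside DMSO libraries of the same experiment and time, which makes 8 groups: in the OSMI-2 experiment, treated and DMSO libraries at either time, and likewise in the TMG experiment. Every group had 3 libraries except OSMI-2 6 h, for which 2 were analysed here. The libraries of a group carry the letters a, b and c. The labels do not say whether they came from separate cultures, so p-values measure the spread between these libraries, which may be technical.

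Human LUC7-like proteins are relatives of yeast Luc7, a part of the U1 snRNP, the particle that recognises 5′ splice sites. RBM25 also acts with the U1 snRNP, RBM39 resembles the U2AF subunit that recognises 3′ splice sites, and RBM5 and RBM6 are related regulators of alternative exons. SON is a large scaffold of nuclear speckles, and ARGLU1 and C1orf63 are rich in charged arginine-containing repeats. A detained intron is one that stays in a polyadenylated transcript, which is held in the nucleus until the intron is removed or the transcript is degraded.

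Total counts per library ranged from 39465746 to 100161560. All 6 markers listed for this line (VIM, KRT8, KRT18, NEFM, PAX2 and LIN28B) had counts in every library. Their summed level was 415 to 1250 CPM (the count scaled to the size of its library). VIM alone held 287 to 989 CPM, while LIN28B held 3.37 to 108 and NEFM 0.273 to 2.77 CPM. Of 6 listed markers of other cell types GFAP was the 1 measured, at 0 to 0.355 CPM, a range that the lowest NEFM level falls in. Detained introns held 0.756% to 1.21% of all counts in the DMSO 6 h libraries of the OSMI-2 experiment, against 0.232% to 0.328% in the other libraries of that experiment and 0.377% to 0.669% in the TMG experiment. Library a of that DMSO 6 h group stood apart from b and c for several members, and results that rest on it are given with and without it. The 2 experiments also differed in level between their DMSO libraries, and experiment and drug cannot be told apart in any comparison of the OSMI-2 libraries with the TMG libraries.

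Except beside the splice-site sequences, positions are given as in the tables, on hg19 as named in the submitters' processing notes. Of the LUC7-like genes, LUC7L lies on chromosome 16 (238966 to 279449, minus strand), merged LUC7L2 on chromosome 7 (139025106 to 139102475, plus strand) and LUC7L3 on chromosome 17 (48796927 to 48828981, plus strand). ARGLU1 lies on chromosome 13 (107194019 to 107220514, minus strand), C1orf63 on chromosome 1 (25568726 to 25580428, minus strand) and SON on chromosome 21 (34915351 to 34949790, plus strand). RBM6 and RBM5 are neighbours on the plus strand of chromosome 3 (49977478 to 50114685 and 50126342 to 50154812). RBM25 lies on chromosome 14 (73525222 to 73588024, plus strand) and RBM39 on chromosome 20 (34291529 to 34330158, minus strand).

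Splice sites are shown for those detained introns whose sequence could be read, since detained introns as a class carry the largest changes described below. Each intron was matched to an intron of the same gene, strand and exact length in GENCODE 29 (GRCh38). Its sequence was read from a GENCODE transcript that keeps the intron. The hg19 positions were not converted, and the positions printed beside the sequences below are those of the matched introns on GRCh38. Of the 11 introns, 9 had exactly 1 match, and 6 of those are kept whole within an exon of an annotated transcript. Not shown are RBM5 E020, RBM6 E024, SON E017, SON E019 and the intron of merged LUC7L2. They include RBM6 E024 and SON E019, which fell most of the 11 after 6 h with OSMI-2 (log2 fold change -2.73 and -2.26). RBM6 E018 and RBM25 E020, which are shown, came next at -2.09 and -2.07. Below are 30 bases at each 5′ splice site, 9 of exon and 21 of intron, with the 9-base site (3 exon and 6 intron bases) in capitals.
C1orf63 E005 (chr1:25244225-25244453, minus strand), 5′ end: aatctgTTGGTAATTgatacatgggctaaa
C1orf63 E007 (chr1:25244499-25245149, minus strand), 5′ end: aagcctGAAGTAAGTattctaggtttgtcg
RBM6 E018 (chr3:50061548-50061961, plus strand), 5′ end: aataccCAGGTGAGTttggggctttttttt
RBM25 E020 (chr14:73111156-73111527, plus strand), 5′ end: ttaaacTGGGTACGTtagcatttccttcct
RBM39 E024 (chr20:35739018-35739392, minus strand), 5′ end: agagccATGGTACTGaccaaagggaccata
RBM39 E026 (chr20:35739548-35740524, minus strand), 5′ end: aatcatAAGGTAGTAattgagtgacttatc

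All 6 begin with GT, as do 99% of the 409 detained introns of the whole series that could be read in the same way. Against the consensus CAGGTAAGT, read on the transcript strand only, RBM6 E018 matched at 8 of 9 positions, C1orf63 E007 at 7, C1orf63 E005 and RBM25 E020 at 6, RBM39 E026 at 5 and RBM39 E024 at 4. The median was 6 in these 6 introns and 6 in the 409, and 33.3% of the 6 and 32% of the 409 matched at 7 or more positions. Below are the 3′ ends of the same introns, 27 bases of intron and 3 of exon, with the last 2 intron bases in capitals.
C1orf63 E005, 3′ end: tttcataatatatgcaatatattccAGatg
C1orf63 E007, 3′ end: tttatctgctctatttctgtcttatAGaaa
RBM6 E018, 3′ end: acttacttgtttccaactgtatcgcAGcaa
RBM25 E020, 3′ end: cttgctaagagagtgtttttactgtAGgtg
RBM39 E024, 3′ end: tgatgttcttctatcaaccctgcttAGgat
RBM39 E026, 3′ end: agcagtgtgaatccctgtttgcttcAGggc

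All 6 end with AG, and the 20 bases before it held 10 (RBM25 E020) to 16 (C1orf63 E007 and RBM39 E024) pyrimidines, with a median of 14 against 15 in the 409 introns. The G and C content of the 6 introns was 28.3% to 40.4%, with a median of 34.3%, and the median of the 409 was 51.4%. These comparisons are descriptions of the reference sequence, and no test was made on them.

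The level of each member was compared per length, as the median over the 23 libraries of CPM per kilobase of bins outside detained introns. Merged LUC7L2 was highest at 70.2 CPM per kb, followed by LUC7L3 at 56.9, RBM5 at 35.7, RBM25 at 33.9, RBM39 at 33.4 and LUC7L at 31.5. RBM6 stood at 19.6, SON at 19.4, ARGLU1 at 10.9 and C1orf63 at 3.43 CPM per kb. Over the 23 libraries, the ranges of neighbours in this order overlapped, except that the lowest value of LUC7L (24.6) lay just above the highest of RBM6 (24.3). The level of C1orf63 was above that of 36.6% of all genes, and that of merged LUC7L2 above 92.2%. For C1orf63, bin E010 took up 6629 of the 8446 bases over which the level was taken. For RBM39, bin E022 took up 3882 of 9972 bases. It held 0.171% to 0.83% of the RBM39 count in the 6 h libraries of the OSMI-2 experiment. Such bins lower the level per kb, so the order depends on the bins counted.

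The members differed in how far their level moved between groups. The mean of RBM39 was 4.83 times as high in its highest group (TMG 6 h) as in its lowest (OSMI-2 6 h), that of RBM25 3.06 times and that of LUC7L3 2.86 times. For RBM6 the same ratio was 1.2 and for LUC7L 1.55. Much of the span of RBM39 lay between the experiments: its DMSO 2 h libraries held 157, 157 and 138 CPM in the OSMI-2 experiment and 347, 333 and 346.5 CPM in the TMG experiment. RBM25 likewise held 86.6, 99.45 and 99.6 CPM in the former and 202, 209 and 223 CPM in the latter. Neither gene's DMSO 2 h libraries overlapped between the experiments, whereas those of RBM5 did, at 115, 149 and 126 against 136, 128 and 127 CPM.

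**Figure D1:**
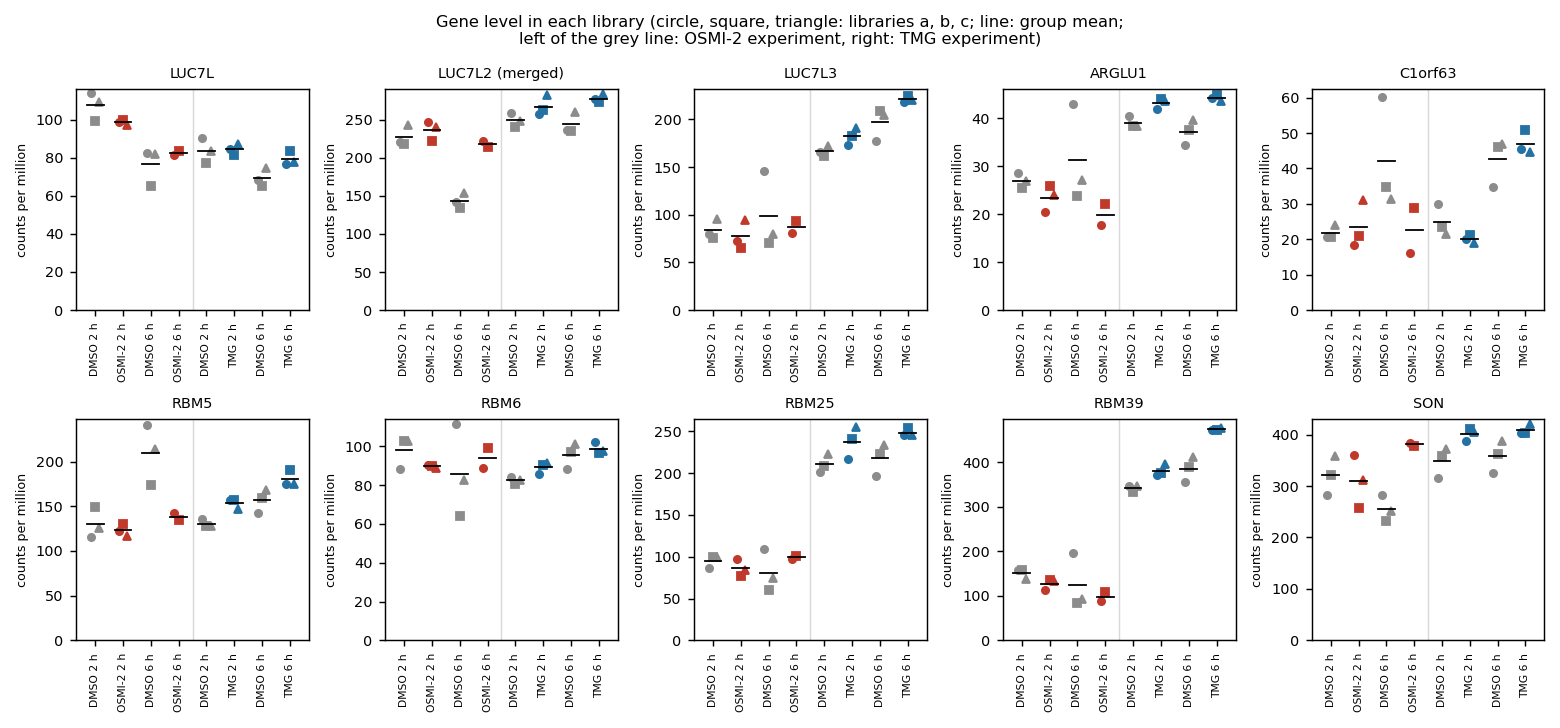
Gene level in CPM (y axis) in each of the 23 libraries for the 10 members, by group (x axis); grey points are DMSO, red OSMI-2 and blue TMG, and black lines are group means. LUC7L3, RBM25 and RBM39 sit higher in every library of the TMG experiment, and DMSO 6 h library a of the OSMI-2 experiment (circles are libraries a, squares b and triangles c) lies above b and c for most members.

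The first comparison asks which members respond within 2 h to OSMI-2. Here 0 of the 10 members were called by the quasi-likelihood test of edgeR (adjusted p under 0.05), beside 0% of the 12343 genes tested, of which 160 had an unadjusted p under 0.05, none of them a member. Of the members, 9 had negative values, between -0.34 and -0.02 on the log2 scale, and C1orf63 stood at 0.03; the value of merged LUC7L2 was positive when libraries were scaled over genes alone (0.01). RBM39 had the value farthest from 0: its DMSO libraries held 157, 157 and 138 CPM and its OSMI-2 libraries 113, 135 and 132 CPM, a log2 fold change of -0.34 ± 0.16 (SE) with an adjusted p of 1. The OSMI-2 libraries of RBM39 lay below its DMSO libraries, by less than the test could separate from the spread. RBM39 was the only one of the 10 members whose groups did not overlap. Of all genes tested, 1.53% lay below without overlap and 4.34% were apart in either direction. In bulk RNA of this kind, fewer cells and less RNA per cell cannot be told apart.

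Detained introns gave the same picture at 2 h of OSMI-2. None of the 11 was called on its own level, beside 0.129% of 3107 detained introns called in either direction, and none relative to its gene, beside 0.0643% of 3111. Values ran from -0.51 (RBM39 E024) to 0.34 (SON E017) on the log2 scale for the intron's own level. Relative to the gene they ran from -0.27 (SON E019) to 0.55 (SON E017). Of 184 exon bins of the members, 165 had enough counts to test and none was called, beside 0% of 115836.

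After 6 h with OSMI-2, C1orf63, which encodes an arginine- and serine-rich protein, fell, and no other member was called. Its DMSO libraries held 60.3, 34.7 and 31.4 CPM and its OSMI-2 libraries 16.0 and 28.96 CPM. Both treated libraries were below all DMSO libraries, although library b of OSMI-2 lay close to the lowest of them. The log2 fold change was -1.11 ± 0.33 (SE; adjusted p = 0.0309, edgeR), and the background was 2.37% of 12484 genes called lower. The call was lost without DMSO library b (adjusted p = 0.0531), DMSO library c (0.0889), OSMI-2 library a (0.672) or OSMI-2 library b (0.554), all from edgeR, with DESeq2 (-0.93, adjusted p = 0.0632) and in an edgeR refit with a trend on G and C content removed (-1.15, adjusted p = 0.0578).

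Among the members not called, ARGLU1 held 43.0, 23.7 and 27.1 CPM in DMSO and 17.7 and 22.2 CPM with OSMI-2, a log2 fold change of -0.85 ± 0.33 (adjusted p = 0.103, edgeR). RBM5, which promotes skipping of exons in apoptosis genes, held 241, 174 and 214 CPM in DMSO and 142 and 134 CPM with OSMI-2, a log2 fold change of -0.80 ± 0.32 (adjusted p = 0.111, edgeR). The groups did not overlap for either gene. SON held 282, 231 and 252 CPM in DMSO and 384.5 and 377 CPM with OSMI-2, and merged LUC7L2 held 142, 135 and 153 against 222 and 214 CPM. In both of these the treated libraries lay above, with log2 fold changes of 0.38 ± 0.32 and 0.41 ± 0.31 and adjusted p of 0.492 and 0.434 (edgeR). In all, the groups of 5 of the 10 members did not overlap, beside 53.9% of genes tested.

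The DMSO library a bore on these values. RBM39 held 197 CPM in it against 84.8 and 92.4 CPM in b and c and 87.2 and 109 CPM with OSMI-2. LUC7L3 held 146 CPM against 70.3 and 79.4 CPM, and 81.1 and 93.9 CPM with OSMI-2. Library a also had the highest share of detained introns, 1.21% of its counts. Without it, 6 of 10 members were called by edgeR: C1orf63 (-0.71), RBM5 (-0.63) and ARGLU1 (-0.50) were lower, and SON (0.51), merged LUC7L2 (0.45) and RBM25 (0.42) were higher, while RBM39 stood at -0.0034 and LUC7L3 at 0.08. The number of all genes called rose from 617 to 5268 without this library.

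The directions of small values at 6 h of OSMI-2 depended on the scaling. The median log2 fold change over all genes was 0.15 with libraries scaled over genes and detained introns, -0.09 when scaled over genes alone and 0.35 in a fit of all 23 libraries. The called genes were 321 higher and 296 lower with the first scaling and 33 higher and 481 lower with the second. In the fit of all libraries, which also shares 1 estimate of the spread, they were 5022 higher and 959 lower. LUC7L (-0.09), RBM6 (-0.07) and RBM25 (0.09) changed sign among these settings, and for them no direction is given. C1orf63, ARGLU1, RBM5, RBM39 and LUC7L3 kept a negative value and SON and merged LUC7L2 a positive one in each of them.

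**Figure D2:**
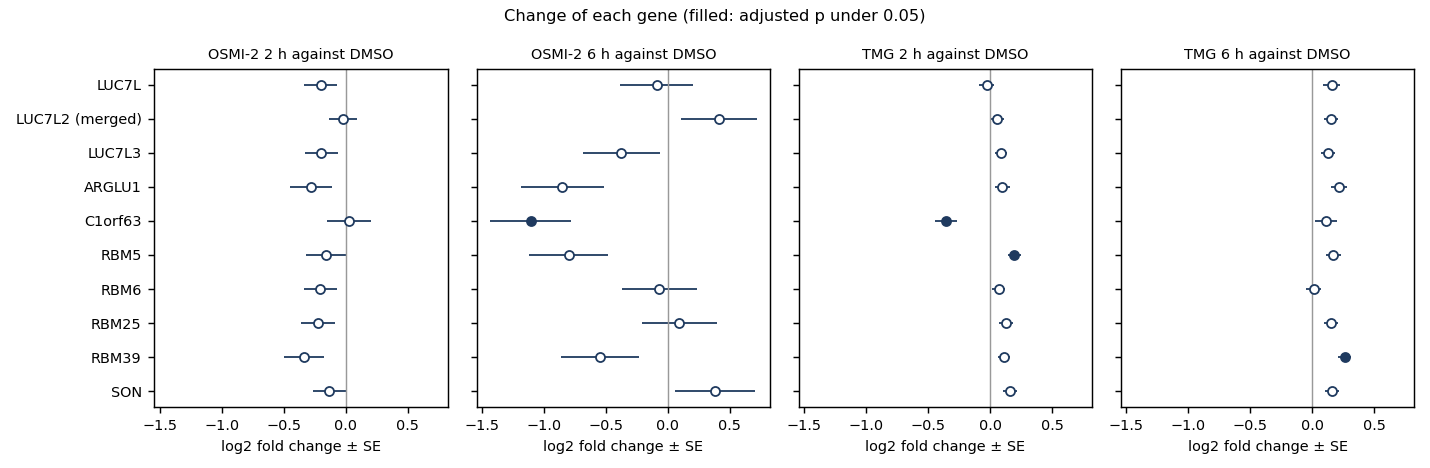
Log2 fold change (x axis, with SE as bars) of each of the 10 members (y axis) against the DMSO libraries of its own experiment and time; filled points have an adjusted p under 0.05. Filled points are C1orf63 at OSMI-2 6 h and at TMG 2 h, RBM5 at TMG 2 h and RBM39 at TMG 6 h; the bars at OSMI-2 6 h are the widest.

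All 11 detained introns of the members were lower after 6 h with OSMI-2. So were most detained introns of the series: 86.3% of the 4677 tested were called lower, so the members' count is near the background. The members' log2 fold changes ran from -1.27 to -2.73 with a median of -1.83, beside a median of -1.55 over all. In 10 of the 11, the OSMI-2 libraries lay below every DMSO library, which 85.6% of all detained introns also did.

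SON E019 held 5.95, 3.18 and 3.30 CPM in DMSO and 0.874 and 1.10 CPM with OSMI-2, a log2 fold change of -2.26 ± 0.31 (SE; adjusted p = 2.43e-11, edgeR). As a share of the SON count, it went from 2.11%, 1.38% and 1.31% to 0.227% and 0.291%. RBM6 E024, with the largest change, held 2.36, 2.41 and 1.53 CPM in DMSO and 0.2985 and 0.417 CPM with OSMI-2 (log2 fold change -2.73 ± 0.365, adjusted p = 7.9e-12, edgeR). In both introns the groups were apart, and both kept their call when any 1 library was left out. They were also the 2 that kept it when libraries were scaled over detained introns alone (-0.77 for SON E019 and -1.24 for RBM6 E024, adjusted p = 0.048 and 0.00385, edgeR), a scaling that sets the median detained intron near 0. Under it the introns of C1orf63 and RBM39 had positive values, from 0.05 to 0.23, none of them called.

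RBM5 E020 was the detained intron of the highest level in the DMSO 6 h libraries, with 19.6, 16.8 and 15.3 CPM, and held 5.48 and 5.63 CPM with OSMI-2. Its share of the RBM5 count went from 8.14%, 9.66% and 7.16% to 3.86% and 4.185%. The treated shares were close to those of the DMSO 2 h libraries of the same experiment, 4.36%, 3.59% and 3.97%. The shares of SON E017 were likewise nearer to those at 2 h, at 0.582% and 0.660% with OSMI-2 for 6 h and 0.138%, 0.372% and 0.352% in DMSO at 2 h, against 3.604%, 2.47% and 2.39% in DMSO at 6 h. The DMSO 6 h libraries were thus the high ones of this experiment.

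The introns of RBM39 changed least firmly. RBM39 E026 held 5.38, 1.84 and 1.43 CPM in DMSO and 0.874 and 1.76 CPM with OSMI-2, so the groups overlapped; its log2 fold change was -1.31 ± 0.30 (adjusted p = 3.49e-05, edgeR). Without DMSO library a it was -0.44 (adjusted p = 0.175) and without OSMI-2 library a -0.92 (adjusted p = 0.0526), both from edgeR. RBM39 E024 lost its call without OSMI-2 library a (adjusted p = 0.0783, edgeR), and both lost it with DESeq2 (adjusted p = 0.161 for E026 and 0.0923 for E024).

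Relative to the gene, as log2 of the ratio of intron and gene counts tested with limma, 9 of the 11 introns were lower, beside 89.2% of 4616 detained introns. The 2 others were those of C1orf63: E005 stood at -0.34 ± 0.28 (SE; adjusted p = 0.245, limma) and E007 at -0.12 ± 0.26 (adjusted p = 0.652, limma), so for them a change beyond that of the gene was not detected. C1orf63 E007 made up 13.1%, 12.3% and 12.8% of the gene count in DMSO and 12.5% and 10.8% with OSMI-2. SON E019 had an adjusted p of 4.96e-17 and a log2 change of -2.58 ± 0.29 relative to its gene (limma). RBM39 E026 was called at -0.70 ± 0.30 (adjusted p = 0.0229, limma), but not without DMSO library a (0.107), DMSO library b (0.0801) or OSMI-2 library a (0.401), and RBM39 E024 was not called without OSMI-2 library a (0.343, limma). In the authors' deposited table, the adjusted p of RBM39 E024 and E026 was 0.105 and 0.367, so both missed the threshold there.

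**Figure D3:**
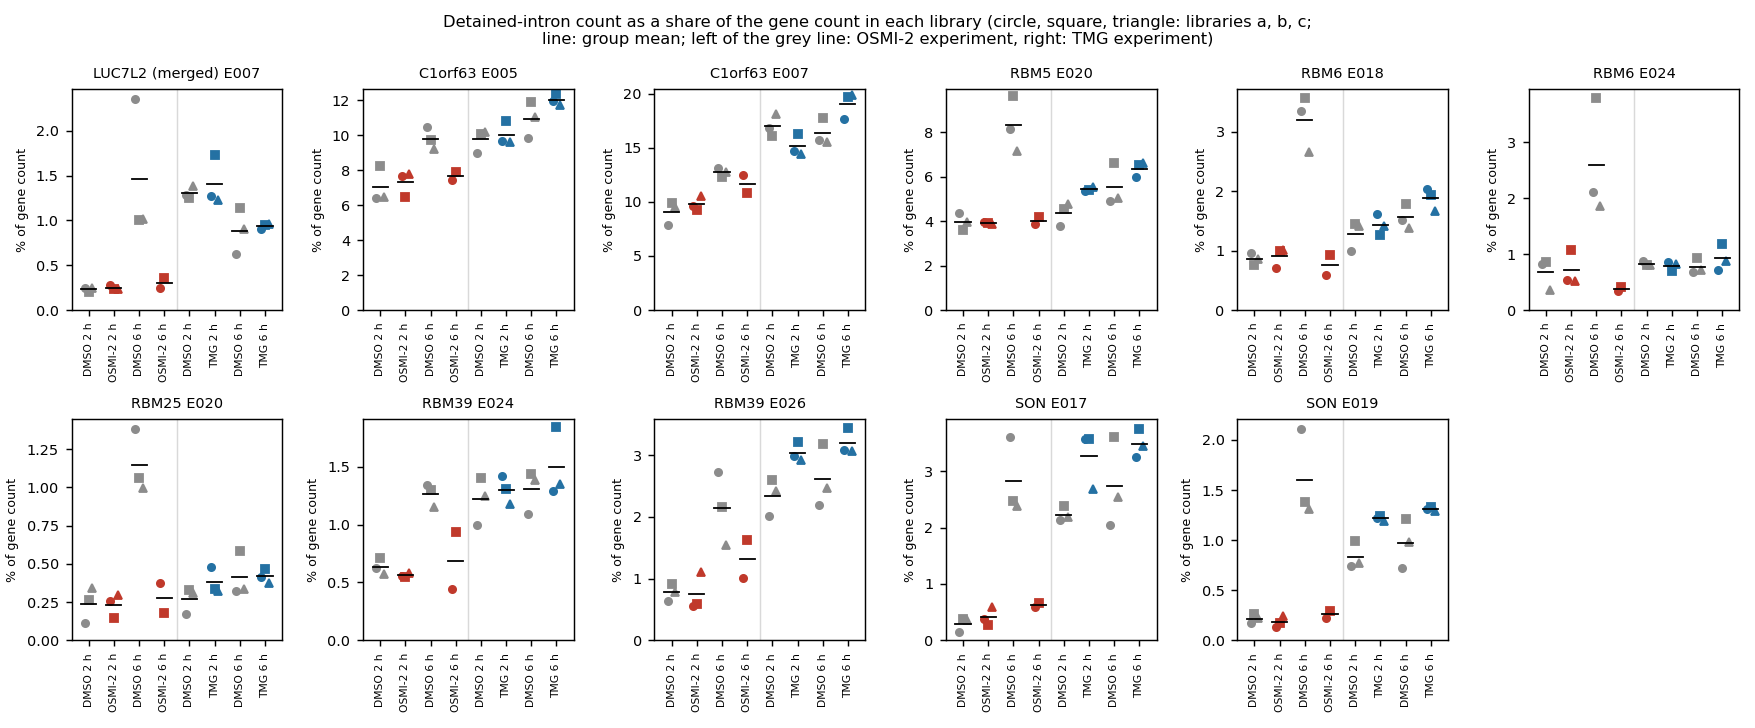
Count of each of the 11 detained introns as a percentage of its gene's count (y axis) in each of the 23 libraries by group (x axis); grey points are DMSO, red OSMI-2 and blue TMG, and black lines are group means. In the OSMI-2 experiment the DMSO 6 h libraries stand above the other 3 groups for every intron except C1orf63 E007 and RBM39 E026, where OSMI-2 6 h overlaps, and the C1orf63 introns hold the largest shares.

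Exon bins of the members were also tested relative to their gene after 6 h with OSMI-2. Of the 184 bins, 174 had enough counts, 17 were called lower (limma, adjusted p under 0.05), beside 1.88% of 125415 bins, and 3 were called higher, beside 0.541%. The 20 lay in LUC7L, LUC7L3, C1orf63, RBM5, RBM25, RBM39 and SON. The 3 largest falls were in SON E018 (-2.14 ± 0.29 on the log2 scale), SON E011 (-2.07 ± 0.46) and LUC7L E004 (-1.91 ± 0.28).

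SON E018 is a bin of 38 bases (chromosome 21, 34944057 to 34944094) that lies between the detained introns E017 and E019. It held 84, 32 and 42 counts in DMSO and 12 and 19 counts with OSMI-2, and its share of the SON count went from 0.488%, 0.221% and 0.286% to 0.0665% and 0.0700%. The bins SON E020, LUC7L E009 and E012 and the last bins of LUC7L3 were singled out after their values were seen. SON E020, which follows E019, was lower too, at -1.28 ± 0.18 (adjusted p = 0.00143, limma). SON E018 borders both detained introns and SON E020 borders E019. Reads that cross these borders can be counted in the introns too, and their part in the falls of E018 and E020 was not tested. SON E011 (chromosome 21, 34932082 to 34932182) rested on few counts, with 28, 7 and 15 in DMSO and 3 and 6 with OSMI-2. Its call (adjusted p = 0.0289, limma) was lost without DMSO library c (0.0773), OSMI-2 library a (0.219) or OSMI-2 library b (0.134).

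LUC7L E004 (chromosome 16, 240661 to 240801) made up 0.897%, 1.49% and 0.816% of the LUC7L count in DMSO and 0.288% and 0.233% with OSMI-2, and LUC7L E009 (-1.49 ± 0.32) and E012 (-1.44 ± 0.16) were lower as well. In LUC7L3, which has no detained intron in the tables, the last 4 bins were lower together. E016 to E019 (chromosome 17, 48828085 to 48828981) had log2 changes between -0.97 and -1.27 with adjusted p from 1.41e-05 to 0.000271 (limma). LUC7L3 E017 made up 7.55%, 6.39% and 7.37% of the gene count in DMSO and 3.26% and 3.03% with OSMI-2, with no overlap. All 4 carry the authors' tag ClassI_ALE_Complex, read here as alternative last exons, so the fall is not one of an end common to all transcripts. These bins are neighbours and can share reads, so they are not 4 independent observations.

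The 3 higher bins were LUC7L E013 (0.50 ± 0.12), C1orf63 E009 (0.35 ± 0.08) and LUC7L3 E006 (0.30 ± 0.07). Each lost its call in limma without DMSO library a, DMSO library c, OSMI-2 library a or OSMI-2 library b, with adjusted p between 0.0512 and 0.347, and LUC7L3 E006 also without DMSO library b (0.054). LUC7L E013 is the first bin of its gene (chromosome 16, 279278 to 279449), at 4.31%, 5.87% and 4.46% of the gene count in DMSO and 6.65% and 7.02% with OSMI-2. The number of member bins called fell without OSMI-2 library a and rose to 28 without DMSO library a. The share of all exon bins called in these refits is not given here, so the counts are not read as particular to the members.

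**Figure D4:**
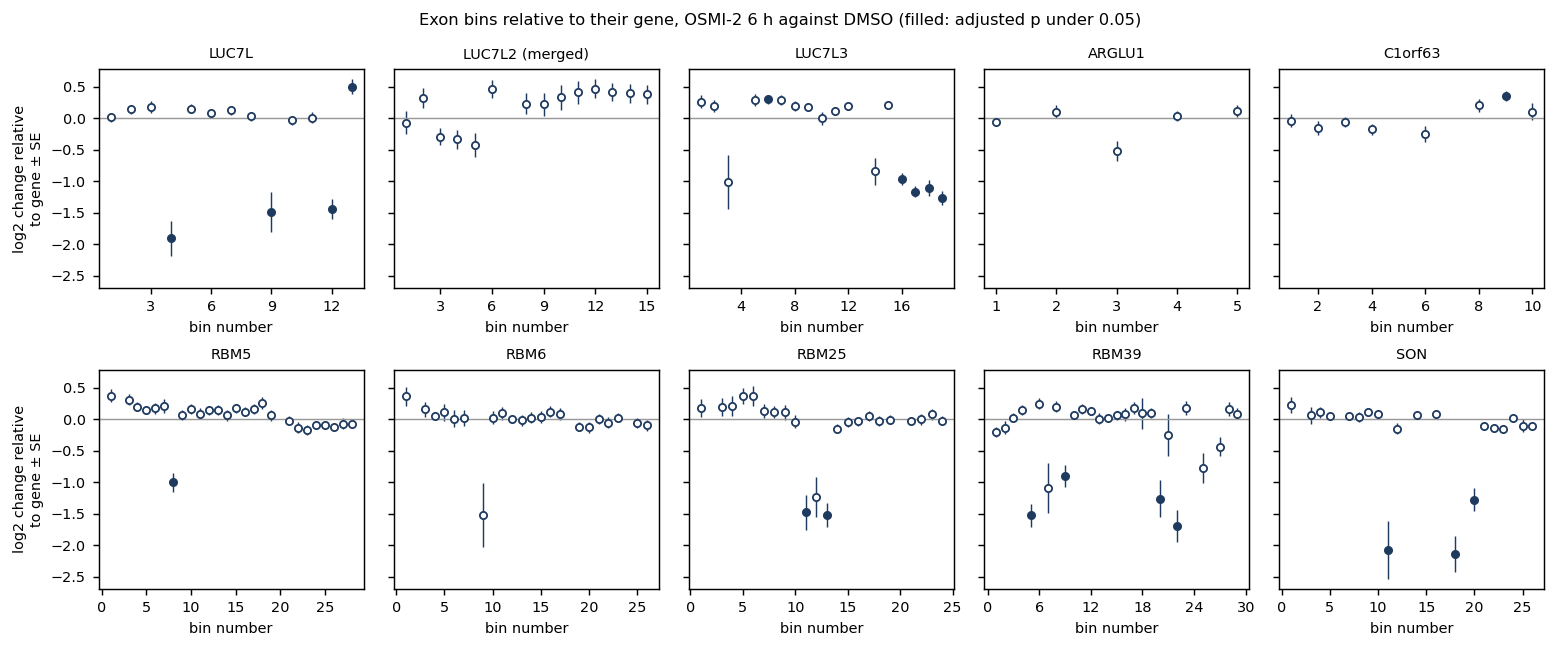
Log2 change of each tested exon bin relative to its gene after 6 h with OSMI-2 (y axis, with SE as bars) by bin number within each of the 10 members (x axis); filled points have an adjusted p under 0.05 in limma. Most bins lie near 0, and the 17 filled points below 0 include the last 4 bins of LUC7L3 and SON E018 and E020.

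After 2 h with TMG, RBM5 rose and C1orf63 fell, and the other 8 members were not called. RBM5 held 136, 128 and 127 CPM in DMSO and 157.5, 157 and 147 CPM with TMG, with every treated library above every DMSO library. Its log2 fold change was 0.20 ± 0.05 (SE; adjusted p = 0.0207, edgeR), and the background was 1.25% of 12361 genes called higher. The call was lost without DMSO library b (adjusted p = 0.103), DMSO library c (0.097), TMG library a (0.0899) or TMG library b (0.113) in edgeR.

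C1orf63 held 29.8, 23.4 and 21.5 CPM in DMSO and 20.1, 21.2 and 18.9 CPM with TMG, so the groups were close but did not overlap. Its log2 fold change was -0.36 ± 0.09 (adjusted p = 0.0114, edgeR), and 6.67% of genes were called lower. Without DMSO library a it was -0.21 (adjusted p = 0.0804) and without TMG library c -0.31 (adjusted p = 0.0955), both from edgeR, and with DESeq2 it was not called (adjusted p = 0.144). Neither gene was called in a fit of all 23 libraries (adjusted p = 1, edgeR). SON, not called, held 316.5, 359 and 373 CPM in DMSO and 388, 412 and 405 CPM with TMG, a log2 fold change of 0.16 ± 0.05 (adjusted p = 0.0652, edgeR). In all, 6 of 10 members had every TMG library above every DMSO library (ARGLU1, LUC7L3, RBM5, RBM6, RBM39 and SON), beside 11.9% of genes tested. Scaled over genes alone, SON was also called (adjusted p = 0.0372, edgeR), and the split of all called genes went from 154 higher and 824 lower to 247 higher and 521 lower.

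Of the 11 detained introns, 4 rose after 2 h with TMG, beside 9.69% of 4056 called higher, and 1 fell, beside 0.123% called lower. Those that rose were SON E017, SON E019, RBM5 E020 and RBM39 E026. SON E017 held 6.75, 8.53 and 8.16 CPM in DMSO and 13.9, 14.7 and 10.9 CPM with TMG, a log2 fold change of 0.71 ± 0.10 (SE; adjusted p = 3.7e-05, edgeR). SON E019 held 2.35, 3.56 and 2.86 against 4.74, 5.10 and 4.82 CPM, a log2 fold change of 0.69 ± 0.13 (adjusted p = 0.00106, edgeR). Both introns of SON were thus higher in every TMG library.

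RBM39 E026 held 6.99, 8.65 and 8.40 CPM in DMSO and 11.1, 12.1 and 11.5 CPM with TMG, a log2 fold change of 0.49 ± 0.09 (adjusted p = 0.00131, edgeR). RBM5 E020 held 5.14, 5.84 and 6.07 CPM in DMSO and 8.41, 8.50 and 8.14 CPM with TMG, a log2 fold change of 0.51 ± 0.10 (adjusted p = 0.00157, edgeR). The groups of both introns were apart. RBM39 E024, the neighbour of E026, was not called and stood at 0.21 ± 0.12 (adjusted p = 0.253, edgeR). Counting RBM25 E020 (0.59 ± 0.23, adjusted p = 0.092, edgeR), 5 of the 11 introns had TMG libraries above all DMSO libraries, beside 34.3% of all detained introns tested.

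The intron that fell was C1orf63 E007, at 5.02, 3.78 and 3.90 CPM in DMSO and 2.96, 3.44 and 2.73 CPM with TMG (log2 fold change -0.52 ± 0.13, adjusted p = 0.0132, edgeR). It was not called without DMSO library a (adjusted p = 0.0979) or TMG library a (0.0543) in edgeR. Relative to C1orf63 it stood at -0.17 ± 0.13 (adjusted p = 0.382, limma), so a change beyond that of the gene was not detected. With libraries scaled over detained introns alone, which sets their median near 0, RBM39 E026 (adjusted p = 0.346, edgeR) and RBM5 E020 (0.297) were not called, and in a fit of all 23 libraries none of the 5 was (adjusted p from 0.147 to 0.292, edgeR).

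Relative to the gene, 3 introns rose at 2 h of TMG, beside 10.2% of 4031: SON E017 (0.54 ± 0.10, adjusted p = 0.00222, limma), SON E019 (0.55 ± 0.13, adjusted p = 0.0107) and RBM39 E026 (0.38 ± 0.10, adjusted p = 0.0167). SON E017 made up 2.13%, 2.38% and 2.19% of the SON count in DMSO and 3.575%, 3.57% and 2.68% with TMG, with library c the lowest. None of the 3 was called without TMG library a (adjusted p = 0.059, 0.0718 and 0.0866 in that order, limma), and SON E019 and RBM39 E026 were not called without TMG library b (0.086 and 0.109). RBM39 E026 was also not called without DMSO library a (0.0885, limma). In the authors' deposited table the adjusted p of SON E017 and E019 was 0.0399 and 0.0128 and that of RBM39 E026 was 0.106. No exon bin of the members was called of 173 tested, beside 0.0257% of 132319, and 40 had an unadjusted p under 0.05, as did 6.81% of all exon bins tested; bins of 1 gene share its count and are not independent.

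After 6 h with TMG, RBM39 rose, and the other 9 members were not called. RBM39, which also acts as a transcriptional coactivator, held 355.5, 389 and 411 CPM in DMSO and 471, 472 and 477 CPM with TMG. The TMG libraries lay close together and above all DMSO libraries. The log2 fold change was 0.26 ± 0.05 (SE; adjusted p = 0.0123, edgeR), beside 1.19% of 12103 genes called higher. The call was lost without TMG library a (adjusted p = 0.0568), b (0.0762) or c (0.0675) in edgeR, although the value itself stayed at 0.26, and in a fit of all 23 libraries (0.30, adjusted p = 1).

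The other members had positive values as well, from 0.01 (RBM6) to 0.22 (ARGLU1), with a median over the 10 of 0.15 beside -0.03 over all genes. In 8 of 10 (all but C1orf63 and RBM6) every TMG library was above every DMSO library, beside 12.6% of genes tested. ARGLU1 held 34.3, 37.4 and 39.6 CPM in DMSO and 44.3, 44.8 and 43.6 CPM with TMG (log2 fold change 0.22 ± 0.07, adjusted p = 0.0634, edgeR). LUC7L3 held 177.5, 209 and 205 CPM in DMSO and 218, 224 and 221 CPM with TMG (0.13 ± 0.06, adjusted p = 0.191, edgeR), and the groups were adjacent. Without DMSO library a, 4 members were called, ARGLU1, LUC7L and merged LUC7L2 beside RBM39. With single libraries left out in turn, the number of all genes called ranged from 89 to 1248, against 730 with none left out. The share of all genes called without DMSO library a is not given here, so the count of 4 is not read as particular to the members. Library a was the lowest DMSO library here for 8 of the members, all but LUC7L and merged LUC7L2, and without it RBM6 stood at -0.0078. In a refit with a trend on G and C content removed, 7 members were called by edgeR, and all called genes were 876 higher and 781 lower, against 144 and 586. That refit also estimated the spread anew: merged LUC7L2, which has no G and C value, kept its log2 fold change of 0.15 and went from an adjusted p of 0.119 to 0.0179 (edgeR), so the counts do not measure the trend alone.

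None of the 11 detained introns was called at 6 h of TMG, beside 0.19% of 4219 called in either direction, and 5 had an unadjusted p under 0.05 in edgeR, as did 7.85% of all tested. All 11 values were positive, from 0.16 (RBM25 E020) to 0.58 (SON E019), with a median of 0.33 beside 0.15 over all detained introns. In 4 of them (RBM39 E024, RBM39 E026, SON E017 and SON E019) the TMG libraries lay above every DMSO library, beside 12.1% of detained introns tested. RBM39 E026 held 7.83, 12.4 and 10.1 CPM in DMSO and 14.5, 16.2 and 14.7 CPM with TMG, a log2 fold change of 0.55 ± 0.17 (adjusted p = 0.349, edgeR).

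Leaving out DMSO library b moved the count of member introns called, and leaving out any other single library did not. It held the highest share of detained introns among the DMSO 6 h libraries of the TMG experiment, 0.669% of its counts against 0.462% in a and 0.538% in c, and without it 6 member introns were called by edgeR (SON E017, SON E019, RBM39 E024, RBM39 E026, RBM5 E020 and C1orf63 E007, the last with an adjusted p of 0.05 after rounding). The number of all detained introns called rose from 8 to 332 without it. Relative to the gene, none of the 11 was called, beside 0.191% of 4181, and 2 had an unadjusted p under 0.05 in limma, as did 5.43% of all tested. Without DMSO library b, 3 were called (SON E017, SON E019 and RBM39 E026). With 1 library left out at a time, 5 to 273 of all detained introns were called relative to the gene. No exon bin of 174 was called, beside 0.0102% of 127914, and 19 had an unadjusted p under 0.05, as did 5.68% of all exon bins tested.

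**Figure D5:**
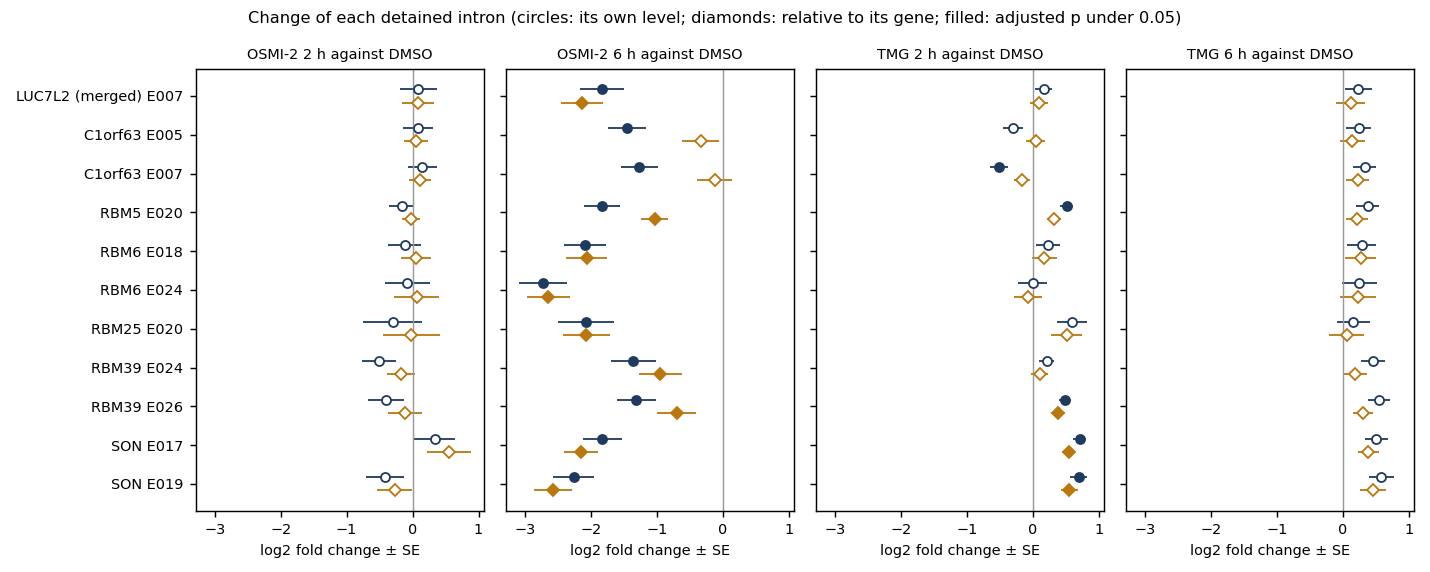
Log2 fold change (x axis, with SE as bars) of the 11 detained introns (y axis) in the 4 comparisons with DMSO; circles give the intron's own level, diamonds its change relative to the gene, and filled points have an adjusted p under 0.05. All circles are filled and below 0 at OSMI-2 6 h, where the diamonds of C1orf63 are unfilled and near 0, and the TMG values lie mostly above 0.

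The DMSO libraries of 6 h and 2 h were compared within each experiment, since the detained introns differed between them. In the OSMI-2 experiment all 11 introns were higher at 6 h, beside 88.5% of 4472 detained introns. Log2 differences ran from 0.77 (RBM39 E024) to 3.00 (SON E017), with a median of 1.75 beside 1.70 over all. SON E017 held 0.391, 1.20 and 1.26 CPM at 2 h and 10.2, 5.71 and 6.03 CPM at 6 h.

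In the TMG experiment, 3 introns were higher in DMSO at 6 h than at 2 h, beside 21% of 4095, and 1 was lower, beside 0.904%. The 3 were C1orf63 E005 (0.84 ± 0.19, adjusted p = 0.00115), C1orf63 E007 (0.60 ± 0.18, adjusted p = 0.0092) and RBM5 E020 (0.49 ± 0.17, adjusted p = 0.0263), all from edgeR. The intron of merged LUC7L2 was lower (-0.71 ± 0.20, adjusted p = 0.0078, edgeR), at 3.33, 3.00 and 3.44 CPM at 2 h and 1.49, 2.67 and 2.34 CPM at 6 h. Its groups did not overlap. In the OSMI-2 experiment the same intron was higher at 6 h (2.03 ± 0.31, adjusted p = 5.68e-08, edgeR). The difference between the experiments was not tested. The number of introns called in the TMG experiment ranged from 1 without DMSO 2 h library c to 7 without DMSO 6 h library a, with 2 without DMSO 2 h library b or DMSO 6 h library c. No share of all detained introns is given for these refits.

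C1orf63 was the member gene higher at 6 h of DMSO in both experiments. It rose by 1.01 ± 0.27 on the log2 scale in the OSMI-2 experiment (adjusted p = 0.011, edgeR) and by 0.65 ± 0.11 in the TMG experiment (adjusted p = 2.58e-05, edgeR). RBM5 was also higher in the OSMI-2 experiment (0.73 ± 0.26, adjusted p = 0.0444, edgeR), which makes 2 of 10 members beside 4.59% of genes called higher. In the TMG experiment 1 member was higher, beside 16.3%, and LUC7L (-0.38 ± 0.08, adjusted p = 0.000349) and ARGLU1 (-0.19 ± 0.08, adjusted p = 0.0427) were lower, beside 29.6% of genes. In the OSMI-2 experiment, without 1 library at a time, 0 (without DMSO 2 h library a), 1 (without DMSO 2 h library b or c or DMSO 6 h library b or c) or 5 (without DMSO 6 h library a) members were called. In the TMG experiment the number was 5 without DMSO 6 h library a. No share of all genes is given for these refits, so the counts are not read as particular to the members.

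The effects of the drugs were compared by an interaction term, the OSMI-2 effect minus the TMG effect, in a fit of all libraries of 1 time. At 2 h no member gene differed, beside 0% of 12608 genes (1025 of them with an unadjusted p under 0.05), and no detained intron did, beside 0.255% of 4306. At 6 h the effect on ARGLU1 and RBM5 was lower with OSMI-2 than with TMG, by -0.90 ± 0.30 (adjusted p = 0.0483) and -0.81 ± 0.24 (adjusted p = 0.0295) on the log2 scale in edgeR, beside 2.97% of 12563 genes called lower and a median of 0.36 over all genes. The calls rested on single libraries: no member was called without either OSMI-2 6 h library or without any of the 6 libraries of the TMG experiment, 6 were called without DMSO 6 h library a of the OSMI-2 experiment, and 3 without its library b or c. All 11 introns differed at 6 h, by -1.42 to -2.81, beside 73.7% of 4677 called lower. Without DMSO 6 h library a of the OSMI-2 experiment, 7 of the 11 were called. The share of all genes or detained introns called in these refits is not given here, so the counts are not read as particular to the members.

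The effects at 6 h and 2 h were compared in the same way within each drug. For OSMI-2 no member gene differed, beside 0.111% of 12627 genes. Of the 11 introns, 9 had a lower effect at 6 h, beside 65.7% of 4693, and the other 2 were those of RBM39, at -0.90 ± 0.48 (adjusted p = 0.093, edgeR) and -0.97 ± 0.52 (adjusted p = 0.0918, edgeR). For TMG no member gene differed, beside 0.0242% of 12399, and no intron did, beside 0.0684% of 4388. The largest TMG differences were those of C1orf63, at 0.49 ± 0.14 for the gene (adjusted p = 0.34, edgeR) and 0.87 ± 0.22 for E007 (adjusted p = 0.126, edgeR). C1orf63 held 20.1, 21.2 and 18.9 CPM at 2 h of TMG and 45.4, 50.9 and 44.8 CPM at 6 h, and its DMSO libraries moved from 29.8, 23.4 and 21.5 to 34.7, 46.1 and 47.0 CPM.

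Introns differed in how much of their gene's count they held. The introns of C1orf63 held the largest shares, from 6.41% to 12.4% (E005) and from 7.83% to 19.8% (E007) over the 23 libraries. Per base they stood at a median of 356% and 187% of the mean density of the gene's other bins. That mean is weighted by length, and bin E010 takes up 6629 of the 8446 bases. Not every other bin was less dense: in DMSO 6 h of the OSMI-2 experiment, E009 (586 bases) held 14.9% to 17.7% of the count. E007 (651 bases) held 12.3% to 13.1% there. RBM5 E020 held 3.59% to 9.66%, and the other 8 introns stayed at or under 3.78%. Per base, the intron of merged LUC7L2 and RBM6 E024, the longest at 4598 and 4620 bases, had the lowest density, at a median of 0.706% and 0.811% of the rest of the gene. RBM39 E024 and E026 stood at 31.3% and 22.5%, against a mean in which bin E022 of RBM39 takes up 3882 of 9972 bases.

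A list of 29 other genes of the same machinery (U1 and U2 snRNP proteins and their partners, U2AF, and SR-like nuclear proteins) was measured beside the members. At 2 h of OSMI-2 none was called. At 6 h, CCNL2, an SR-like cyclin, was lower (-1.08 ± 0.32, adjusted p = 0.0313, edgeR) and none was higher, beside 2.37% of all genes called lower. At 2 h of TMG 3 were higher, beside 1.25% of all genes. They were CCNL1 (0.25 ± 0.05, adjusted p = 0.00392), SRRM2 (0.20 ± 0.06, adjusted p = 0.0447) and PNN (0.16 ± 0.05, adjusted p = 0.0414), all from edgeR. At 6 h of TMG 4 were higher, beside 1.19% of all genes, and none lower. In a fit of all 23 libraries, 0 of all genes tested were called at 2 h of TMG and 2 at 6 h. Of the 4, the largest values were in SF1, the branch-point binding protein (0.37 ± 0.06, adjusted p = 0.00317), CCNL2 (0.28 ± 0.08, adjusted p = 0.0401) and SREK1 (0.25 ± 0.06, adjusted p = 0.0243), all from edgeR. The 29 detained introns in these genes fell in 27 cases at 6 h of OSMI-2 and rose in 9 of 28 tested at 2 h of TMG, beside 86.3% of all detained introns called lower and 9.69% called higher in those comparisons; none was called in the other comparisons.

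The pattern of the members over the 23 libraries was summarised as the mean of their centred log2 CPM, without merged LUC7L2. The non-member genes most like it, among 11243 with a mean of at least 50 counts, were CCDC77 and RNPC3 (Pearson r = 0.976 each), DNAJC2 (0.972), RBM41 (0.969) and UHRF2 (0.968). This is a description over libraries that share experiment, time and depth, and no p is given. Members differed in how far they followed the others: LUC7L3 had r = 0.965 with the mean of the rest, RBM39 0.919, ARGLU1 0.903 and RBM25 0.884, while RBM5 had 0.309 and LUC7L -0.458. LUC7L alone was highest in the DMSO 2 h libraries of the OSMI-2 experiment, at 114, 99.3 and 109 CPM, against 68.4, 64.9 and 74.55 CPM in DMSO 6 h of the TMG experiment.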

How the data were processed

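The authors deposited 1 table for each drug and time, with counts of reads per bin for each library, their own log2 fold change and their adjusted p-value for bin usage. The authors aligned reads with STAR to hg19, per the submitters' processing notes; the counter, the annotation and the use of strand are not given in the sources used here. The kit was stranded and RNA was extracted with either of the named reagents, per the labels, which do not say which for a sample. Bins with a detained-intron tag were taken as detained introns, the other bins of a gene were summed to its gene count, and a read may be counted in several bins. The labels list 24 samples in 8 groups of 3; of OSMI-2 6 h, 2 libraries were in the tables and the third is not analysed here. Column letters do not match the replicate numbers of the labels and were used as names only.

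Genes and detained introns were tested in edgeR 4.0.16 by its quasi-likelihood F-test (filterByExpr, TMM scaling over genes and detained introns together), each drug and time against its own DMSO libraries. The SE of a log2 fold change was taken as its size divided by the square root of the F statistic. Introns and exon bins relative to the gene were tested with limma 3.58.1 on log2((bin + 1)/(gene + 1)), in R 4.3.3, at a mean count of at least 10; this understates changes of low bins. P-values were adjusted by Benjamini-Hochberg over all features tested, with a threshold of 0.05. Printed CPM use 1 TMM scaling over 23 libraries, and fold changes the scaling of their own comparison. Alternatives were DESeq2 1.42.0, other scalings, no filter, a fit of all libraries, the column letter as a block, a trend on GC, a pseudocount of 5, a mean count of at least 30, the authors' test and each library left out. The tests were tried on simulated data with a set spread, with gene and intron tests scaled over genes or introns alone. These settings differ from those used for the data, so no conclusion is drawn from the trial.

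The members, the pathway list and the markers were chosen with earlier results of these data known. All members and their detained introns are named; of exon bins and pathway genes the 3 largest changes per comparison, and of genes with a similar pattern the first 5.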

Additional observations from a re-analysis of the deposited data

Results flagged for a closer look

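A test of the difference between effects marked 2 genes and 20 intron values. The effect on the gene at 6 h was lower with OSMI-2 than with TMG for ARGLU1 (-0.902 on the log2 scale) and RBM5 (-0.807), by the interaction term in edgeR. Neither call was kept when any single library of OSMI-2 6 h or of the TMG experiment at 6 h was left out.

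For detained introns, the OSMI-2 effect was lower than the TMG effect at 6 h in all 11, beside 73.7% of all detained introns tested. The log2 differences were -1.513 for C1orf63 E005, -1.424 for C1orf63 E007 and -1.892 for the intron of merged LUC7L2. They were -2.075 for RBM25 E020, -1.629 for RBM39 E024, -1.682 for RBM39 E026 and -2.044 for RBM5 E020. They were -2.207 for RBM6 E018, -2.808 for RBM6 E024, -2.159 for SON E017 and -2.671 for SON E019. Experiment and drug cannot be told apart in these values.

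Within the OSMI-2 experiment, the effect at 6 h was lower than that at 2 h for 9 introns, beside 65.7% of all tested. The log2 differences were -1.592 for C1orf63 E005, -1.469 for C1orf63 E007, -1.967 for merged LUC7L2, -1.816 for RBM25 E020 and -1.716 for RBM5 E020. They were -2.022 for RBM6 E018, -2.692 for RBM6 E024, -2.218 for SON E017 and -1.892 for SON E019. The DMSO 6 h libraries of this experiment held the largest share of detained introns, 0.756% to 1.21% of their counts, and the part of that in these differences was not tested.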

How the results depend on the processing

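Of 1470 member values recomputed under alternatives, 1279 kept their direction and side of the threshold, 69 lost a call, 51 gained one, and 71 changed sign, 67 of them uncalled in both settings. The 4 called values that reversed were introns at OSMI-2 6 h scaled over detained introns alone: C1orf63 E005 (0.046), C1orf63 E007 (0.2295), RBM39 E024 (0.1412) and RBM39 E026 (0.2086). Of 480 counts, 353 stayed within 1.5 times. The cause was not tested for the changes below. The trend on GC was not run for introns, and GC was known for 9 of 10 members. Without an OSMI-2 6 h library the lone treated one is assumed to vary like the others. Low counts limit SON E011.

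At OSMI-2 2 h, DESeq2 called 1 gene (0 in edgeR), the block and the authors' test 4 introns relative to the gene each (2), and the authors' test 14 exon bins (0). At OSMI-2 6 h, members called (1) were 2 scaled over genes alone, 0 with DESeq2, 5 in a fit of all libraries, 0 with the block and 5 with the GC trend removed. C1orf63 was not among these 5 (adjusted p = 0.0578) and stood at -1.292 with the block (0.309, edgeR). All genes called (617) were 1184 with DESeq2, 5981 in the fit of all, 0 with the block and 3064 with the GC trend removed, a fit that also estimates the spread anew (merged LUC7L2, with no GC value, stayed at 0.4084 and went from an adjusted p of 0.434 to 0.0391, edgeR). Scaled over introns alone, 770 introns were called (4063), 2 of them members (11), and the authors' test called 6022 exon bins (3031).

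At TMG 2 h the fit of all libraries called 0 genes (978), 0 members (2), 3 introns (398) and 0 member introns (5), and 596 genes were called with the GC trend removed. Introns numbered 77 scaled over introns alone and 143 with DESeq2, and 152 relative to the gene in the authors' test (412). Exon bins numbered 148 with the block and 186 in the authors' test (34), those of members 1 with a pseudocount of 5 and 3 with the block (0). At TMG 6 h members called (1) were 3 scaled over genes alone, 2 with DESeq2, 0 in the fit of all, 5 with the block and 7 with the GC trend removed. Genes (730) were 2, 1363 and 1657 in the last 3 of these. Introns (8) were 14 scaled over introns alone, 4 with DESeq2, 3 in the fit of all and 30 with the block, 3 of them members (0), and 19 relative to the gene with the block (8). Exon bins (13) were 43 with the block and 50 in the authors' test. Of DMSO 6 h against 2 h in the TMG experiment, 5 members were called scaled over genes alone (3). The letters do not pair the libraries: correlations of deviations at OSMI-2 2 h were -0.36, 0.373 and 0.634.

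With each library left out in turn, calls at OSMI-2 2 h were 2 to 7 introns, 2 to 5 relative to the gene and 0 to 3 exon bins. At OSMI-2 6 h they were 0 to 5268 genes, 0 to 6 members, 1448 to 3021 exon bins and 13 to 28 of members. At TMG 2 h they were 243 to 1212 genes, 1 member each time, 60 to 562 introns, 29 to 531 relative to the gene (0 to 4 of members), 10 to 84 exon bins and 0 to 1 of members. At TMG 6 h they were 89 to 1248 genes, 0 to 4 members, 6 to 332 introns (0 to 6 of members), 5 to 273 relative to the gene (0 to 3), 12 to 29 exon bins and 0 to 1 of members. Between DMSO times, members were 0 to 5 in the OSMI-2 and 2 to 5 in the TMG experiment, with 1 to 7 introns in the latter. For the drug difference they were 0 to 1 introns at 2 h and, at 6 h, 0 to 6 genes and 7 to 11 introns, and for the TMG times 0 to 1 introns.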
